A study of Rattus norvegicus with 9 samples.

Results

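The data describe how rat aortic smooth muscle cells (RASMC) respond when extracellular potassium is withdrawn. Of the 9 Affymetrix Rat Gene 1.0 ST arrays of the series, 6 enter this comparison: 3 arrays of cells kept for 6 hr in K+-free DMEM and 3 arrays of cells kept for 6 hr in control DMEM. They were chosen by their titles, K_Free and Control. The other 3 arrays hold cells given 3 mM ouabain in DMEM for the same time and serve here as a second condition that stops the same pump. All cells were cultured, quiescent RASMC bought as a primary line, all wells were washed with K+-free DMEM before treatment, and the 3 arrays of a group came from independent experiments. The arrays measure RNA of whole cultures, so that fewer cells of a type and less RNA per cell cannot be told apart. With 3 arrays in a group, their number limits the precision, and p-values measure the spread between these experiments alone.

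The Na+,K+-ATPase carries sodium out of the cell and potassium into it, and it stops when no potassium is available outside. Sodium then builds up inside the cell, potassium is lost, and the gradients that drive calcium, chloride and nutrient transport run down. Ouabain reaches a comparable ionic state by another route, since it binds the pump itself. In vascular smooth muscle such ion changes are known to alter tone, volume and the transcription of immediate early genes. Whether removal of external potassium changes the transcriptome, and which functions it touches, is the question this comparison addresses.

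A change was called when limma gave an adjusted p under 0.05 together with a fold above 1.2, and all changes below are differences of mean log2 signals, K+-free minus control. Of 27342 probe sets, 9281 (33.9%) were called, of which 4391 (16.1%) rose and 4890 (17.9%) fell. Centring the arrays on B2m moved the median change of all probe sets from 0.06 to -0.10 on the log2 scale and the counts to 2375 rises and 7059 falls, so that 25.2% of the calls were rises in place of 47.3%. Centring on the mean of reference genes gave 3032 rises and 5832 falls, or 34.2% rises. Repeated quantile normalization gave 4596 and 4679. The balance of rises and falls thus depended on the scaling. Small changes lost their call under some scalings. This is stated beside the genes named and beside many but not all of the lists, so that counts of a list without it may also have shifted.

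Counted once per gene, 2547 of 14324 genes (17.8%) rose and 3431 (24.0%) fell. The counts of each gene list below are to be read against these shares. The arrays of the 2 groups did not overlap for 9396 genes (65.6%), a share that limits what non-overlap says about any single gene. Array-to-array spread was small: the standard error (SE) of a change had a median of 0.065 over all genes. Correlations between arrays ran from 0.9982 to 0.9984 within control medium, from 0.9971 to 0.9983 within K+-free medium and from 0.9709 to 0.9745 between them.

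Rises and falls differed in the shape of their size distribution. Among called genes, 401 rose and 834 fell by more than 2-fold. Above 3-fold the numbers were 163 and 162, and above 5-fold they were 61 and 11. All 15 genes that changed by more than 10-fold rose. Many of the smallest rises were dim: 482 of the 1497 rises between 1.2-fold and 1.5-fold lay under the median of all values (6.77) in both media, against 110 of 1460 falls of that size. Of the rises above 3-fold, none was dim in that sense, but a large rise can by itself lift a gene over the median. In control medium Cxcl2, Csf2 and Pla2g2a, for example, were at 5.40, 5.26 and 5.97 on average. Falls were most frequent among fairly bright probe sets, those with mean signals from 7.64 to 9.65, where 40.7% fell and 22.0% rose.

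**Figure D1:**
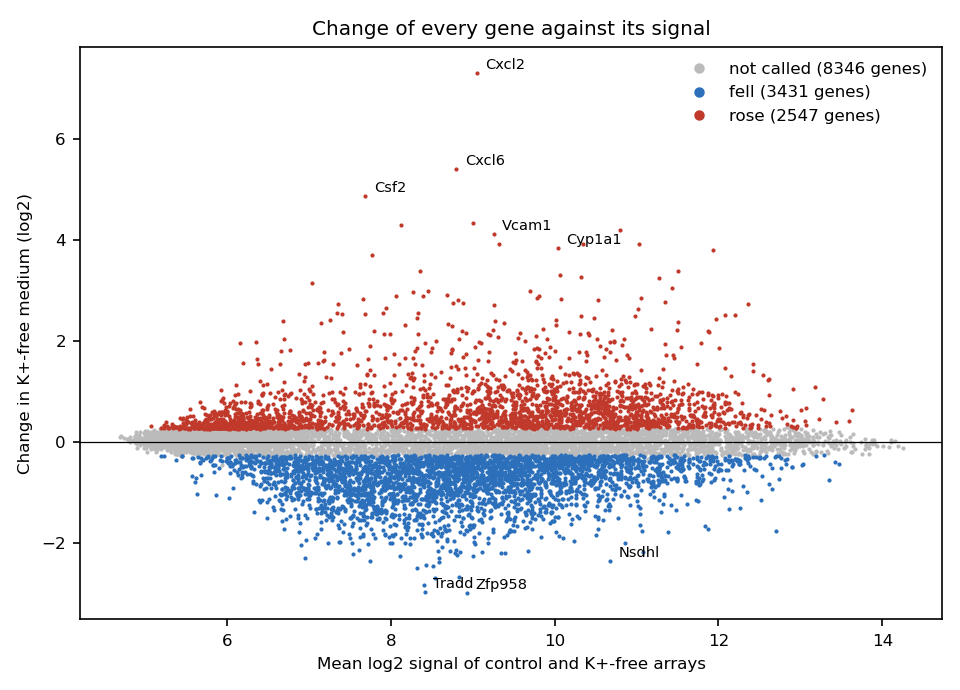
Change in K+-free medium (log2, y axis) against the mean log2 signal of the control and K+-free arrays (x axis), 1 point per gene; red points rose, blue points fell and grey points were not called. The cloud of falls reaches to -2.99, while the rises reach to 7.30 at Cxcl2.

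The cells carried smooth muscle markers. Of 7 markers measured, 6 lay above the median of all values, led by Tagln, an actin-binding protein of smooth muscle, at 13.59, 13.59 and 13.63 in control medium and 13.52, 13.52 and 13.51 in K+-free medium. Myocd, the co-activator that drives the contractile programme, was at 10.49 on average in control medium and 10.31 in K+-free medium. Des, the intermediate filament protein of mature muscle, was under the median on every array, with values from 5.47 to 5.90. The summed linear signal of the 7 markers ran from 20864 to 21459 in control medium and from 18311 to 18666 in K+-free medium.

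Markers of other cell types were mostly dim. Of 10 macrophage markers, 8 lay under the median of all values on all 6 arrays, among them Ptprc, Itgam, Adgre1 and Aif1. The remaining pair, Cd14 and Cd68, rose by 0.43 and 0.94, the first of these calls being lost after B2m centring, and so did the dim Csf1r, the receptor for macrophage colony-stimulating factor, by 0.53. Of 7 endothelial markers, 5 were dim on all arrays. Flt1, a VEGF receptor, fell by 0.68, and the dim Cdh5, an endothelial cadherin, rose by 0.29, a call lost after B2m or reference gene centring and after repeated quantile normalization. Among 9 fibroblast markers 6 were dim on all arrays, and Pdgfra, a receptor for platelet-derived growth factor, rose by 1.30 (SE 0.062). Lum, lumican, was the brightest of this list, at 12.76 on average in control medium and 13.05 in K+-free medium. It therefore weighs most in the summed signal of the list. Its rise of 0.29 lost its call after B2m or reference gene centring and after repeated quantile normalization. The summed linear signal in control and K+-free medium ran from 693 to 749 and 893 to 997 for the macrophage list, from 1222 to 1352 and 945 to 1020 for the endothelial list, and from 7921 to 8124 and 10111 to 10777 for the fibroblast list. The part of other cell types in the inflammatory results that follow was not tested.

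The largest rises were genes for secreted inflammatory signals. Cxcl2, a chemokine that attracts neutrophils, had log2 signals of 5.23, 5.46 and 5.52 in control medium and 12.71, 12.64 and 12.76 in K+-free medium. The measured change was 7.30 (SE 0.11, 158-fold, adjusted p = 2.14e-11). Cxcl6, a related neutrophil chemokine, rose from 6.12, 6.17 and 6.00 to 11.51, 11.50 and 11.49, or by 5.40 (SE 0.073, 42.3-fold, adjusted p = 1.3e-11). Csf2, which encodes granulocyte-macrophage colony-stimulating factor, rose from 5.14, 5.26 and 5.38 to 10.15, 10.07 and 10.14, or 29.0-fold. For each of these genes all K+-free arrays lay far above all control arrays. Arrays that do not overlap were a condition for the choice of the largest rises. The control signals of Cxcl2 and Csf2 lay under the lower quartile of their arrays (5.70 to 5.74) and are not known to exceed background. The folds of this pair are therefore those of the measured signals and not exact. Cxcl6, and Ccl20 and Cxcl3 below, were also dim in control medium, at 6.10, 5.98 and 5.93 on average. These values lay under the median of 6.77, and the folds of these genes may be inexact as well.

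Further secreted factors followed. Tnfsf15, a cytokine of the TNF family, stood at 6.93, 6.80 and 6.78 in control medium and at 11.21, 11.16 and 11.15 in K+-free medium, a 20.2-fold rise. Ccl20, a chemokine for dendritic cells and lymphocytes, went from 5.97, 5.91 and 6.05 to 10.35, 10.09 and 10.36, a 19.5-fold rise. Lif, leukaemia inhibitory factor, was already well expressed at 8.70, 8.79 and 8.63 and reached 12.82, 12.97 and 12.88, an 18.2-fold rise. No control array came near a K+-free array for these genes. Cxcl10, an interferon-inducible chemokine, rose 15.1-fold, Cxcl1 13.8-fold, Cxcl3 13.0-fold and Ccl7, which attracts monocytes, 10.4-fold.

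**Figure D2:**
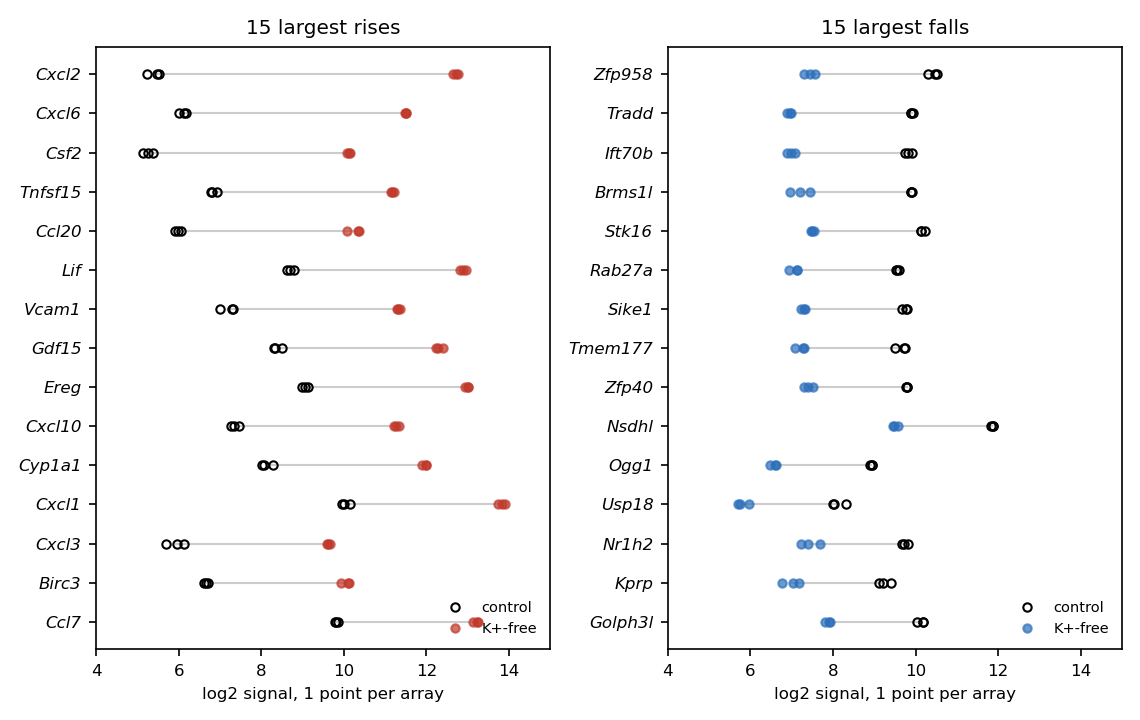
Log2 signal (x axis) of the 15 largest rises (left) and the 15 largest falls (right), 1 point per array; open circles are control arrays, filled circles K+-free arrays, and grey lines join the group means. Only genes whose 3 K+-free arrays lie apart from the 3 control arrays were eligible, so that the separation follows from the selection.

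As a family, 14 of 21 chemokines rose and none fell, with a median change of 1.10 against 0.05 over all genes and 17.8% of all genes rising. The 7 chemokines that did not pass, among them Ccl4 at 0.04, Cxcl9 at 0.14 and Cxcl11 at 0.24, had dim probe sets in both media. All 12 members with a mean above the median of all values in either medium rose. A rise can itself lift a member over that median, as for Cxcl2 at 5.40 on average in control medium. The count of 12 is therefore no separate evidence. Chemokines named after their values were seen included Cx3cl1, a membrane-bound chemokine that rose by 3.04, and Ccl2, the main monocyte chemoattractant, which rose from a bright 12.63 to 13.72.

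Of 20 cytokines and colony-stimulating factors, 11 rose and 2 fell. Il6, the acute-phase cytokine, had control signals of 9.27, 9.11 and 9.01 and K+-free signals of 11.94, 11.99 and 11.87, with no overlap, and rose 6.97-fold (SE of the log2 change 0.077, adjusted p = 6.48e-10). Csf1 and Tnf, named after their values were seen, rose by 2.73 and 1.81. Interleukin-1 was not among the movers: Il1a and Il1b had changes of 0.04 and 0.21 on dim probe sets and were not called.

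Several of these genes lie next to each other. In the RefSeq gene order of the GRCr8 assembly, Btc, Areg, Ereg, Epgn, Mthfd2l, Cxcl2, Cxcl1, Cxcl3, Pf4, Ppbp and Cxcl6 follow one another on chromosome 14, with only non-coding, pseudogene or unnamed entries between them. Areg and Ereg, which encode ligands of the EGF receptor, rose by 2.13 and 3.92, and Mthfd2l, a mitochondrial folate enzyme named for its place, rose by 2.13. The run of rises was not unbroken: the platelet chemokines Pf4 and Ppbp, between Cxcl3 and Cxcl6, had changes of 0.013 and 0.15 and were not called. Cxcl1, Cxcl2 and Cxcl3 are close paralogs, and cross-hybridisation between their probe sets was not tested.

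The factor NFkB is held in the cytoplasm by IkB proteins and, once released, binds kappaB sites and switches on chemokine, adhesion and survival genes together with its own inhibitors. Of 27 measured NFkB subunits, inhibitors and adaptors, 18 rose and 6 fell, and none of them was dim in both media. Nfkbia, which encodes IkB alpha, stood at 9.95, 9.91 and 10.02 in control medium and 12.72, 12.78 and 12.68 in K+-free medium, a 6.84-fold rise. Nfkbiz, a nuclear IkB protein that steers a subset of NFkB targets, rose 6.22-fold. Birc3, a ubiquitin ligase of the TNF receptor complex, rose from 6.67, 6.71 and 6.62 to 10.13, 9.92 and 10.11, or 10.5-fold. For these 3 genes the K+-free and control arrays did not overlap.

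Other components of the same list fell steeply. Tradd, the adaptor that couples the TNF receptor to its kinases, dropped from 9.88, 9.95 and 9.88 to 6.98, 6.87 and 6.95, a 7.81-fold fall (SE of the log2 change 0.054, adjusted p = 4.55e-11). Sike1, a suppressor of the IKK-related kinases, dropped from 9.77, 9.68 and 9.79 to 7.33, 7.30 and 7.22, a 5.51-fold fall. Ikbke and Ikbkg, subunits of IKK-type kinases named after their values were seen, fell by 1.11 and 0.95. The list thus moved in both directions.

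Adhesion molecules for leukocytes rose in part. Vcam1, which binds leukocyte integrins, was at 7.32, 7.0 and 7.28 in control medium and at 11.37, 11.31 and 11.28 in K+-free medium, a 17.4-fold rise. Icam1, another integrin ligand, rose from 9.69, 9.58 and 9.68 to 12.91, 12.96 and 12.82, or 9.49-fold. The selectins Sele and Selp stayed on dim probe sets with changes of 0.15 and 0.23 and were not called. Of 17 genes for leukocyte adhesion and antigen presentation, 8 rose and 1 fell; Cd80, a co-stimulatory ligand, rose by 1.72 and Tapbp, which loads peptides on class I molecules, by 1.08. The count of rises was 6 after centring on B2m, on reference genes or after repeated quantile normalization.

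Interferon-stimulated genes gave no common direction: 6 of 22 rose and 4 fell, with a median of 0.09, and B2m centring left 3 rises and 5 falls. Irf1, a transcription factor induced by both NFkB and interferons, rose 9.59-fold, from 8.74, 8.65 and 8.69 to 11.98, 11.92 and 11.95, and Isg20, an RNA exonuclease, rose by 2.22. Usp18, which removes ISG15 and dampens interferon receptors, fell from 7.99, 8.31 and 8.02 to 5.95, 5.76 and 5.69, or 4.95-fold. Stat2, a carrier of the interferon signal, fell 3.76-fold. The classical antiviral genes Ifit1, Mx1 and Oas1a changed by 0.05, 0.08 and 0.03 on dim probe sets.

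Promoter sequence was read because several of the largest rises are known NFkB targets. The part of NFkB in these rises was not tested. The 250 bases before each RefSeq transcription start (GRCr8) were searched on both strands for the kappaB consensus, and a gene was counted when any of its listed promoters held a match. A match was found for 25 of the 124 genes that rose over 3-fold and have a promoter entry (20.2%), for 12 of 142 that fell over 3-fold (8.45%), for 923 of all 11806 genes tested (7.82%) and for 1901 of 27457 RefSeq genes (6.92%). Of the 15 largest rises, 10 have an entry and 7 of these hold a match. A match is a string of letters and was not tested for binding. The 10 rises below were picked among inflammatory and NFkB-linked genes. Matches were also found for Nfkbiz, Slc9a3, Nppc, Bhlhe41 and Nr4a1, which are not shown. Each stretch is written 5′ to 3′ in the direction of the gene with the kappaB match in capitals:
Cxcl2 (chr14:17467295-17467354, minus strand): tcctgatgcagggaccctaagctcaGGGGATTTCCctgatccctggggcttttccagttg
Cxcl6 (chr14:17596471-17596530, minus strand): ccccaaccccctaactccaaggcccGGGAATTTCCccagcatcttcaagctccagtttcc
Cxcl1 (chr14:17479371-17479430, minus strand): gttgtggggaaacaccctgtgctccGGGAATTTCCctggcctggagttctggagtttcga
Vcam1 (chr2:206742842-206742901, minus strand): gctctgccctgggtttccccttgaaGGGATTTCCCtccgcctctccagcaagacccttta
Cxcl10 (chr14:15988854-15988913, plus strand): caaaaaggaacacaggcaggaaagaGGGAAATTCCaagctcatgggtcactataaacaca
Ccl20 (chr9:91837045-91837104, plus strand): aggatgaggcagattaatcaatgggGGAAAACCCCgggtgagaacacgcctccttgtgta
Ccl7 (chr10:67514011-67514070, plus strand): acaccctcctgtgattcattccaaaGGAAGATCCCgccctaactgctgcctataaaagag
Il6 (chr4:5894609-5894668, minus strand): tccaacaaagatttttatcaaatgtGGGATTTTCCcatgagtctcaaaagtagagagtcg
Nfkbia (chr6:78597073-78597128, minus strand): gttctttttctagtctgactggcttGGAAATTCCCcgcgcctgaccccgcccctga
Irf1 (chr10:38417845-38417904, plus strand): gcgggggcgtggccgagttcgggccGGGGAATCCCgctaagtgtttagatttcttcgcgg

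In Cxcl2 the match begins 74 bases before the start, in Cxcl6 88, in Cxcl1 84, in Vcam1 93 and in Ccl20 89. It begins 59 bases before the start in Ccl7, 68 in Il6, 65 in Irf1 and 187 in Cxcl10. Nfkbia carries it closer, from base 31 before the start. Cxcl10 has a further match that begins 128 bases before the start.

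Other motifs were searched in the same windows. The AP-1 motif TGANTCA was present for 8.06% of the genes that rose over 3-fold, 2.82% of those that fell over 3-fold and 5.73% of all genes tested. The cyclic AMP response element TGACGTCA was present for 6.45%, 0.704% and 2.32%. The TATA box letters TATAAA were present for 17.7%, 2.11% and 11.5%, and the E-box CACGTG for 7.26%, 4.23% and 7.08%. The hypoxia response core, ACGTG or GCGTG, was frequent everywhere at 47.6%, 62.0% and 47.8%, and it is contained in the E-box. No test was run on these shares.

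**Figure D3:**
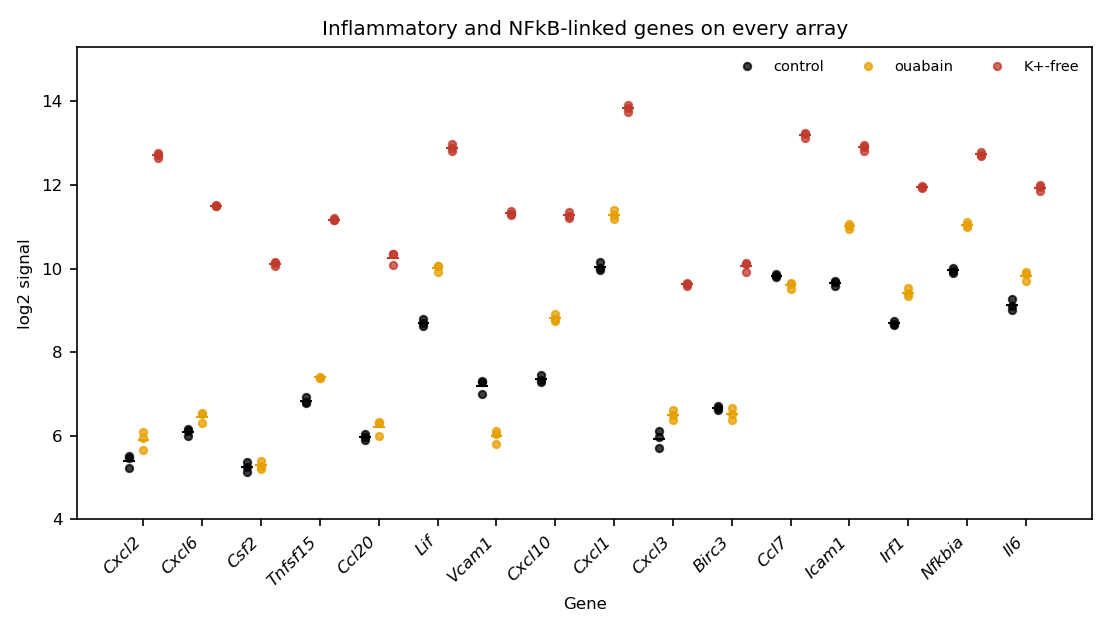
Log2 signal (y axis) of 16 inflammatory and NFkB-linked genes (x axis) on every array of control medium (black), ouabain (orange) and K+-free medium (red); each point is 1 array and each bar a group mean. The K+-free arrays lie above both other groups for all 16 genes, and for Vcam1 the ouabain arrays lie below the control arrays.

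Immediate early genes, which are transcribed within minutes of a stimulus without new protein synthesis, were raised after 6 hr as well. Of 29 measured transcription factors of this class, 26 rose and 1 fell, with a median change of 1.84. Fos, a subunit of AP-1, stood at 6.90, 7.20 and 6.80 in control medium and 10.18, 9.85 and 9.81 in K+-free medium, a 7.91-fold rise. Atf3, a stress-induced member of the CREB family, rose from 6.47, 6.95 and 6.95 to 9.75, 9.84 and 9.68, or 7.83-fold. Klf10 rose 7.16-fold and Ets2 6.68-fold. Groups did not overlap for any of these. Srf, the factor that drives many genes of this class in growing cells, was the member that fell, by 0.37.

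Krüppel-like factors, zinc finger regulators of smooth muscle phenotype, overlapped with that list: 8 of 15 rose and 1 fell. Klf4, a repressor of contractile genes, rose from 8.28, 8.28 and 8.35 to 10.10, 10.08 and 10.08, and its second probe set changed by 2.13. Klf5 rose by 2.13 on its brighter probe set and by 0.48 on the other. Probe sets of a gene therefore agreed in direction here but not always in size. Centring on B2m left 5 rises and 4 falls in this family.

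Growth factor signaling genes rose with their own feedback inhibitors. Ereg, the EGF receptor ligand epiregulin, went from 9.14, 9.06 and 8.99 to 13.00, 13.02 and 12.94, a 15.1-fold rise, and Hbegf, the heparin-binding ligand, rose 4.65-fold. Errfi1, an inhibitor of the EGF receptor, rose by 1.98. In all, 7 of 9 genes for EGF receptor ligands and feedback rose and none fell. Of 17 MAP kinase phosphatases and Sprouty-type inhibitors, which shut off ERK, p38 and JNK, 14 rose and none fell: Dusp10 by 1.97, Dusp6 by 1.83, Dusp16 by 1.76 and Spry4 by 1.23.

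The TGFbeta and BMP list had 21 of 38 members up and 4 down. Gdf15, a stress-induced secreted factor, rose from 8.51, 8.31 and 8.33 to 12.28, 12.41 and 12.23, or 15.2-fold. Bmp6, a bone morphogenetic protein, rose from 8.27, 8.12 and 8.03 to 10.35, 10.31 and 10.38, or 4.62-fold. Its antagonist class was represented by Fst, follistatin, at a 4.35-fold rise, and the signal carrier Smad3 rose 3.64-fold. Of 20 Notch, Hes and Hey genes, 11 rose and 1 fell; the repressor Hes1 rose 4.47-fold and the receptor Notch1 by 1.08. With B2m centring the Notch count was 6 rises and 3 falls.

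Genes that act on vascular tone moved in both directions, 12 of 30 up and 9 down. Adm, the vasodilator peptide adrenomedullin, rose from 8.22, 8.35 and 8.04 to 11.19, 11.24 and 11.16, a 7.95-fold rise. C-type natriuretic peptide, encoded by Nppc, rose 7.42-fold. Edn1, the constrictor endothelin, rose 2.64-fold from an already bright 11.74, 11.73 and 11.69, and the serotonin receptor Htr2a rose 3.58-fold. Gucy1b1, a subunit of the nitric oxide receptor that makes cyclic GMP, fell from 10.49, 10.48 and 10.38 to 9.02, 8.97 and 9.02, or 2.72-fold. Peptides rose on either side of dilation and constriction, with the arrays apart in each case.

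Prostaglandin and clotting genes rose in part. Ptgs2, the inducible cyclooxygenase, went from 10.78, 10.84 and 10.85 to 13.36, 13.32 and 13.31, a 5.68-fold rise, and Pla2g2a, a secreted phospholipase, rose 5.14-fold from dim signals of 5.87 to 6.09. Of 12 genes of the prostaglandin list 5 rose and 1 fell. F3, tissue factor, which starts coagulation, rose 5.64-fold and Thbd, thrombomodulin, which restrains it, 2.54-fold. In the list of fibrinolysis, coagulation and matrix enzymes 10 of 27 rose and none fell, Mmp28 by 2.45 and the urokinase receptor Plaur by 1.00; B2m centring left 6 rises and 3 falls.

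Matrix genes themselves stayed close to control. Of 28 collagens and matrix proteins 8 rose and none fell, with a median change of 0.07, and 2 rises remained with either B2m or reference gene centring. Has2, a hyaluronan synthase, was the exception at 7.43, 7.50 and 7.37 in control medium and 9.42, 9.35 and 9.44 in K+-free medium, a 3.91-fold rise. Col1a1 and Fn1 changed by 0.00 and -0.05.

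Contractile genes of smooth muscle fell or stayed: 8 of 18 fell and 1 rose. Lmod1, leiomodin, which nucleates actin filaments, fell from 9.63, 9.77 and 9.74 to 8.18, 8.33 and 8.19, or 2.79-fold. Csrp1 fell by 0.75, Pln, phospholamban, by 0.73 and Actg2, smooth muscle gamma actin, by 0.65. Myh11, the smooth muscle myosin heavy chain, fell by 0.62, while Tagln at -0.09 and Smtn at -0.19 were not called.

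Transport genes were examined because potassium withdrawal acts on the sodium pump. Of 14 measured members of the pump list, 7 rose and 1 fell. Only 3 of the rises were in members with a mean above the median of all values in either medium. Sgk1, a kinase that raises sodium transport, rose 4.42-fold, from 9.15, 9.34 and 9.24 to 11.36, 11.44 and 11.35. Nkain4, a partner of the pump's beta subunit, rose by 0.70. The beta subunits Atp1b1 and Atp1b3 had changes of 0.24 and 0.25 and lay under the fold limit, although their arrays did not overlap, and Fxyd5, a regulatory subunit, fell by 0.50.

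The remaining pump genes changed little, and all of them but Fxyd1 and Fxyd7 were dim. The rises of Fxyd2 at 0.38, Fxyd4 at 0.33, Atp1a4 at 0.30, Atp1b2 at 0.29 and Fxyd7 at 0.27 were calls that were all lost when arrays were centred on B2m, which left 2 rises in the list. Atp1b2 also lost its call without K+-free replicate 2 (0.262), Fxyd4 without control replicate 2 (0.245), and Fxyd7 without control replicate 2 (0.226) or K+-free replicate 2 (0.206). Fxyd1, Fxyd3, Fxyd6 and Atp1b4 had changes of 0.16, 0.05, 0.15 and 0.03 and were not called.

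Among 28 sodium, chloride and bicarbonate transporters, 8 rose and 9 fell (5 and 9 after B2m centring). Slc9a3, a sodium-proton exchanger best known from kidney and gut, rose from 7.31, 7.16 and 7.22 to 10.19, 10.21 and 10.02, or 7.52-fold. Slc12a2, the sodium-potassium-chloride cotransporter, rose 1.60-fold. Stk39, a kinase that activates that cotransporter, fell by 0.88 and the exchanger Slc9a8 by 0.80. A carrier and its kinase thus moved in opposite directions.

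Of 83 potassium channel genes, 15 rose and 6 fell, shares of 18.1% and 7.23% against 17.8% and 24.0% of all genes. The rises were small, at most 0.42, and 1 was left after B2m centring, where 10 fell. Kcnn4, a calcium-activated channel, went from 10.46, 10.39 and 10.33 to 8.98, 9.07 and 9.08, a 2.54-fold fall, while Kcnd1, Kcnk2 and Kcnmb1 fell by 0.79, 0.67 and 0.65. Among 32 calcium pump, store and channel genes 9 rose and 11 fell (5 and 14 after B2m centring), with Orai2 up by 0.97, Nfatc2 up by 0.66, and Rcan1, a calcineurin regulator, and Itpr2, an inositol trisphosphate receptor, down by 0.81 and 0.71.

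In the osmotic list 7 of 13 rose and 3 fell. Nfat5, the factor that answers hypertonicity, rose 2.37-fold from 10.22, 10.20 and 10.16 to 11.40, 11.36 and 11.54. Subunits of the volume-regulated anion channel parted: Lrrc8c rose by 1.00 and Lrrc8e fell by 1.82, from 8.56, 8.56 and 8.59 to 7.15, 6.53 and 6.58. The first K+-free array of Lrrc8e stood apart from the other two, and the SE of its change was 0.14.

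**Figure D4:**
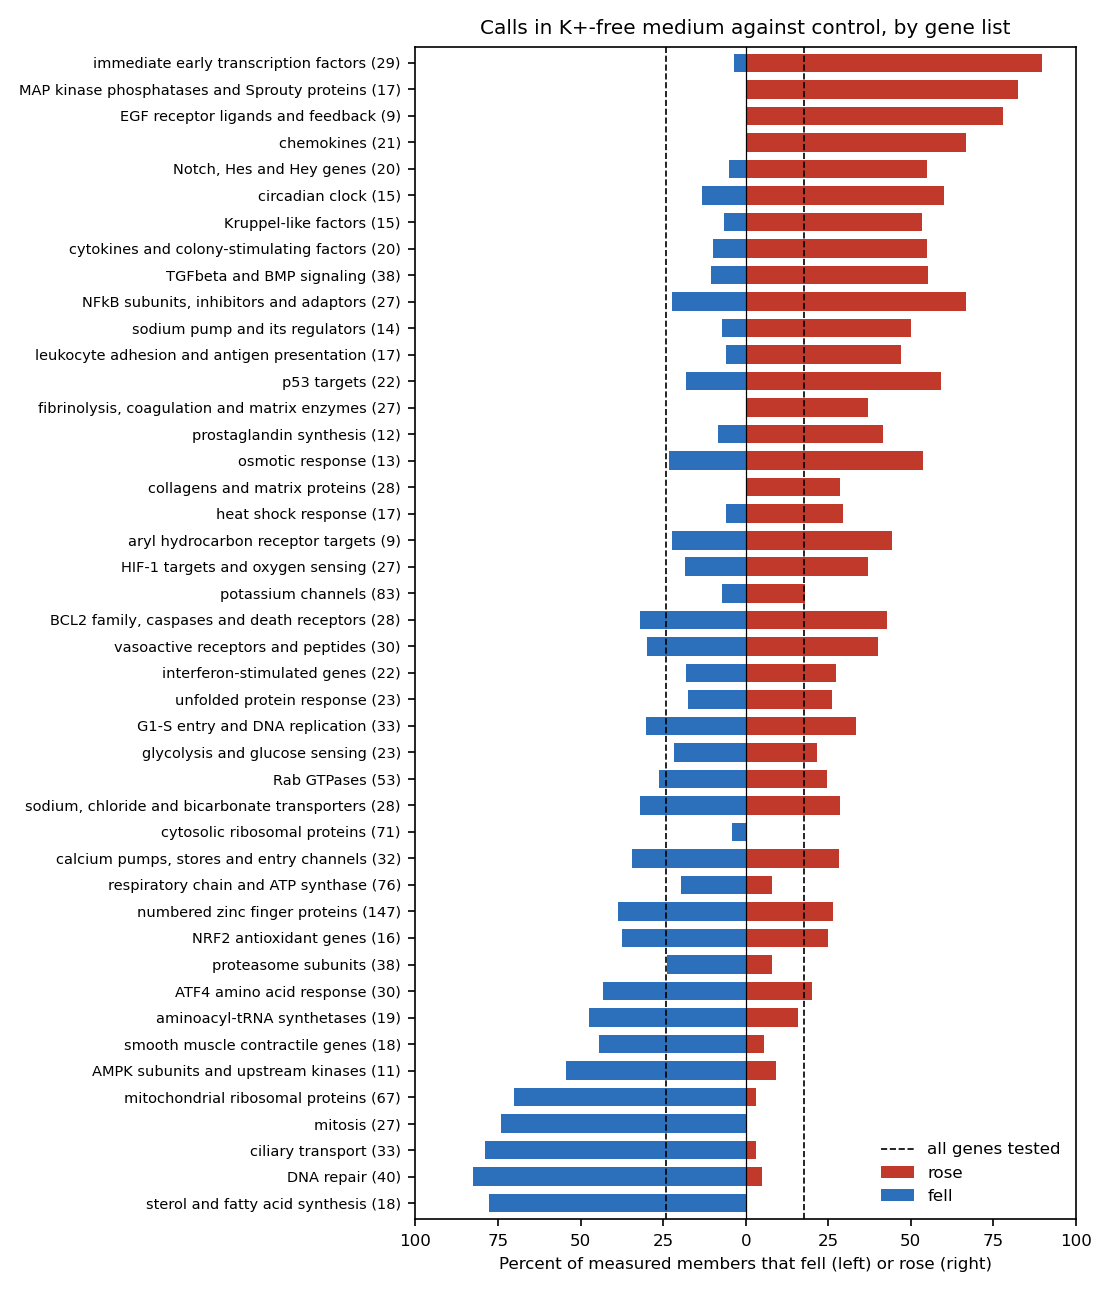
Percent of measured members (x axis) of 44 gene lists (y axis, number measured in brackets) that fell (blue, to the left) or rose (red, to the right) in K+-free medium against control; dashed lines mark 17.8% rising and 24.0% falling over all genes tested. The lists are ordered by percent rising minus percent falling: immediate early transcription factors stand at the top with 89.7% rising and sterol and fatty acid synthesis at the bottom with 77.8% falling.

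Stress programmes responded unevenly. Of 22 p53 targets 13 rose and 4 fell, with a median of 1.00: Gadd45a rose 5.28-fold, Plk2 4.56-fold, Plk3 4.41-fold and Mdm2, the ubiquitin ligase of p53, 3.85-fold, from 10.40, 10.33 and 10.39 to 12.33, 12.27 and 12.35. Cdkn1a, the cell cycle inhibitor, rose 2.33-fold. Of 28 BCL2 family, caspase and death receptor genes 12 rose and 9 fell, or 8 and 10 after B2m centring. Bcl2, which protects from apoptosis, rose 3.98-fold, and the TNF receptor Tnfrsf1b by 1.66, while Casp9 and Casp6 fell by 1.57 and 1.46.

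The unfolded protein response had 6 of 23 genes up (26.1%) and 4 down (17.4%), against 17.8% and 24.0% of all genes. After B2m centring 3 rose and 5 fell. Xbp1, its spliced transcription factor, fell 2.22-fold. In the amino acid response list, 13 of 30 fell and 6 rose: the kinase-like Trib3 fell by 1.23, whereas Ppp1r15a, the phosphatase subunit that restores translation, rose by 1.58 and Cebpb by 1.10. Aminoacyl-tRNA synthetases fell in 9 of 19 cases and rose in 3, and Qars1 fell by 1.72 and Farsa by 1.26; no synthetase rose after B2m centring, reference gene centring or repeated quantile normalization. Heat shock genes rose in 5 of 17 cases, none by more than 0.59, and in 2 cases against 4 falls after B2m centring.

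The list of NRF2 antioxidant genes, which also holds Keap1 and Txnip, was split, with 4 of 16 up and 6 down. After B2m centring 3 rose and 9 fell. Nqo1, a quinone reductase, was bright at 12.17, 12.16 and 12.19 in control medium and fell to 10.04, 9.93 and 10.00, a 4.54-fold fall, whereas Hmox1, heme oxygenase, rose 2.31-fold and Txnip, an inhibitor of thioredoxin, 3.89-fold. Keap1, which restrains NRF2, fell by 1.37. Nqo1 is also a target of the aryl hydrocarbon receptor, and the leading target of that receptor moved the other way: Cyp1a1, a cytochrome that oxidises aromatic compounds, rose from 8.28, 8.07 and 8.03 to 11.98, 11.88 and 12.00, or 14.2-fold.

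Of 27 HIF-1 targets and oxygen sensing genes 10 rose and 5 fell, or 9 and 9 after B2m centring. Egln3, a prolyl hydroxylase of HIF, rose 7.18-fold from 9.61, 9.71 and 9.57 to 12.48, 12.54 and 12.40, and Vegfa rose 1.78-fold, while Pfkfb4 fell by 1.32 and the glycolytic target Pgk1 at 0.14 was not called. In the glycolysis list 5 of 23 rose and 5 fell, 21.7% each way against 17.8% and 24.0% of all genes. After B2m centring 4 rose and 8 fell. Arrdc4, an arrestin domain protein, rose 5.89-fold and hexokinase Hk2 by 1.24. Of 11 AMPK subunits and upstream kinases 6 fell and 1 rose, the gamma subunits Prkag2 and Prkag1 by 1.68 and 1.63. The circadian list had 9 of 15 genes up and 2 down (8 and 4 after B2m centring): Bhlhe41 rose 7.42-fold, Per2 4.88-fold and Per1 3.32-fold, and Bmal2 fell 3.93-fold. The 10 genes that the study followed up all rose, with a median of 2.41; they were picked in part on these arrays, so their count is no independent evidence.

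The largest falls had no shared pathway by name. Zfp958, a zinc finger protein, led them at 10.31, 10.47 and 10.51 in control medium and 7.45, 7.30 and 7.57 in K+-free medium, a 7.95-fold fall (SE of the log2 change 0.087, adjusted p = 8.5e-10). Its second probe set changed by -3.14. Ift70b, a carrier of intraflagellar transport, fell 7.12-fold from 9.92, 9.73 and 9.81 to 6.99, 6.89 and 7.09. Brms1l, a member of a histone deacetylase complex, fell 6.46-fold, and its K+-free arrays were spread from 6.95 to 7.44. These genes ended near the median of all values rather than at the floor of the array.

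Stk16, a Golgi kinase, fell 6.35-fold, Golph3l, another Golgi protein, 4.75-fold and Rab27a, which docks secretory vesicles, 5.65-fold. Tmem177, a mitochondrial assembly protein, fell 5.41-fold, Zfp40 5.20-fold and Nr1h2, a liver X receptor, 4.94-fold. Kprp, a protein of keratinocytes, fell 4.79-fold. Among Rab GTPases as a family 13 of 53 rose (24.5%) and 14 fell (26.4%), against 17.8% and 24.0% of all genes. After B2m centring 9 rose and 23 fell. Rab32 and Rab20 rose by 2.23 and 1.87.

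Genes of sterol and fatty acid synthesis fell together. Of 18 measured, 14 fell and none rose, a share of 77.8% against 24.0% of all genes, with a median change of -0.69. All 18 had a mean above the median of all values in either medium, while the 24.0% includes dim genes. Nsdhl, a sterol dehydrogenase, fell from 11.87, 11.87 and 11.84 to 9.57, 9.46 and 9.47, or 5.13-fold (adjusted p = 1.23e-10). Mvd, of the mevalonate pathway, fell 3.49-fold, Dhcr7, which makes cholesterol in the last step, 3.14-fold and Lss, lanosterol synthase, 2.82-fold. Srebf2, the transcription factor of this pathway, and Insig1, its retention protein, were not called, at -0.07 and -0.19.

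DNA repair genes fell broadly: 33 of 40 (82.5%) fell and 2 rose, with a median of -0.64. Ogg1, which excises oxidised guanine, fell from 8.88, 8.93 and 8.94 to 6.59, 6.63 and 6.48, or 5.11-fold. Polm, a polymerase of end joining, fell 4.13-fold, Mutyh, an adenine glycosylase, 3.76-fold and Xrcc6, a subunit of the Ku end-binding complex, 3.68-fold. The pair that rose, Lig4 and Ercc6, was named after its values were seen and changed by 0.39 and 0.35, and both calls were lost after B2m centring.

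Genes of ciliary transport behaved alike. Of 33 measured, 26 (78.8%) fell and 1 rose, with a median of -0.89, the lowest of the lists examined. Kif3c, a kinesin motor, fell 4.01-fold. Ttc8, of the BBSome, fell by 1.72 and Ift22, of intraflagellar transport, fell by 1.67. Bbs7, the member that rose, changed by 0.62.

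Proteins of the 2 ribosome types parted. Of 67 mitochondrial ribosomal protein genes 47 (70.1%) fell and 2 rose, with a median of -0.44, led by Mrpl40 at a 3.62-fold fall, Mrpl34 at 3.17-fold, and Mrpl32 and Mrpl30 by 1.61 and 1.58. Of 71 cytosolic ribosomal protein genes only Rpl3, Rpl14 and Rpl15 fell, by 0.51, 0.46 and 0.34, and none rose. That list held at a median of -0.03, although B2m centring brought it to 19 falls. The respiratory chain and ATP synthase, also made for mitochondria, had 15 of 76 members down (19.7%) and 6 up, with a median of 0.01. Ndufs3 fell by 1.24. Proteasome subunits had 9 of 38 down (23.7%) and 3 up. The falls of both lists were no more frequent than the 24.0% over all genes. After B2m centring the falls numbered 27 in the respiratory list and 22 in the proteasome list.

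**Figure D5:**
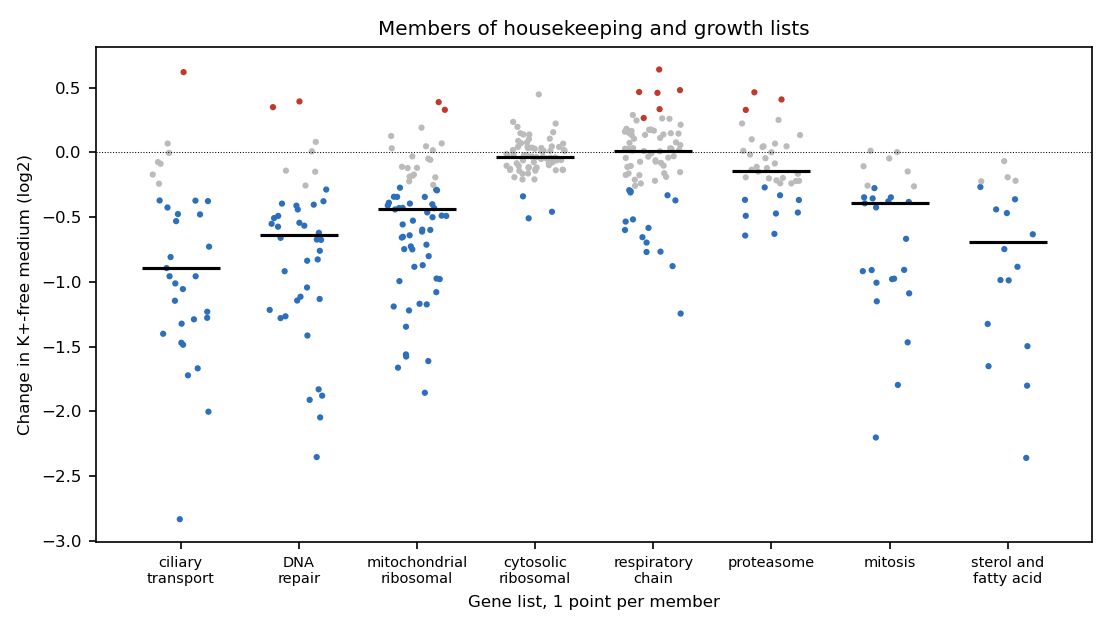
Change in K+-free medium (log2, y axis) of each member of 8 lists (x axis), 1 point per gene; blue members fell, red members rose, grey members were not called, and the black bar is the list median. The bars for ciliary transport (-0.89), DNA repair (-0.64) and sterol synthesis (-0.69) lie below those for cytosolic ribosomal proteins (-0.03) and the respiratory chain (0.01).

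Cell division genes also fell, in cells that had been made quiescent beforehand. Of 27 mitosis genes 20 (74.1%) fell and none rose, with a median of -0.39. Cdc25b, a phosphatase that starts mitosis, dropped from 9.91, 9.96 and 9.80 to 7.70, 7.58 and 7.78, or fell by 2.20, and the kinase Aurkb fell by 1.80. For entry into S phase the counts were balanced, with 11 of 33 up and 10 down: the licensing factor Cdt1 rose by 1.54 and the inhibitor Cdkn2b by 1.32, whereas the primase subunit Prim1 fell by 1.48. Of 147 numbered zinc finger genes 39 rose and 57 fell, or 19 and 68 after B2m centring.

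The K+-free arrays were also set directly against the ouabain arrays, a difference of means in which the control arrays take part only through the spread pooled over all 9 arrays. Of all genes, 1562 (10.9%) stood higher without potassium and 1530 (10.7%) stood lower. Of the 163 genes that rose over 3-fold in K+-free medium, 135 (82.8%) also exceeded their ouabain level, while of the 162 that fell over 3-fold, 70 (43.2%) lay under it. Both comparisons use the same K+-free arrays, so these shares are given as a description.

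The 6 widest gaps above ouabain were at Cxcl2, Vcam1, Cxcl6, Csf2, Ccl20 and Bmp6. In ouabain the log2 signals of Cxcl2 were 5.95, 5.65 and 6.10, and K+-free medium was higher by 6.80 (SE 0.11, adjusted p = 3.01e-11). Vcam1 stood at 6.04, 6.12 and 5.79 in ouabain, below its control arrays, and the difference was 5.33. Bmp6 showed the same order, with 6.45, 6.31 and 6.64 in ouabain against 8.03 to 8.27 in control medium, and was higher in K+-free medium by 3.88. Csf2, Cxcl6 and Ccl20 differed by 4.82, 5.04 and 4.05. In all, 14 of 21 chemokines and 20 of 27 NFkB genes exceeded ouabain, and 0 and 3 lay under it. Of the immediate early factors, 21 of 29 were higher and 1 lower.

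Several large changes showed no called difference between K+-free medium and ouabain. Cyp1a1 in ouabain was at 12.04, 12.09 and 12.13, and its difference of -0.13 (SE 0.071) did not pass. The differences of Isg20, Nppc and Tradd, -0.01, 0.13 and -0.07, did not pass either, with SE from 0.054 to 0.085. Dhcr7 and Hmox1 moved further in ouabain, which placed the K+-free arrays 0.63 above and 1.29 below it. The lowest values relative to ouabain among called genes were found at Usp18 (-2.08), Sgf29, a reader of histone methylation (-1.86), Nqo1 (-1.85), Brms1l (-1.64), Sike1 (-1.51) and the channel subunit Kcne4 (-1.50). Sgf29 had values of 10.12, 10.21 and 10.21 in control medium, 8.70, 8.64 and 8.71 in K+-free medium and 10.47, 10.59 and 10.59 in ouabain, so that its fall was seen in K+-free medium and not in ouabain. Kcne4 fell by 0.43 against control with overlapping arrays, a call lost when control replicate 1 (-0.32), control replicate 3 (-0.42) or K+-free replicate 2 (-0.28) was left out, after repeated quantile normalization (-0.36) and in an analysis of variance without moderation (-0.43).

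Reference genes commonly used for normalization were not all stable. Gapdh at -0.08, Ppia at 0.02, Ywhaz at 0.01 and Rplp0 at -0.03 were not called, nor were Actb at -0.24, Gusb at -0.21, B2m at 0.16, Sdha and Pgk1 at 0.14 and Tbp at 0.23. Hprt1, a purine salvage enzyme, rose from 10.64, 10.60 and 10.41 to 11.05, 11.01 and 11.06, or by 0.49, and Tfrc, the transferrin receptor, by 0.39, a call lost after B2m centring. The 12 genes thus ranged from -0.24 to 0.49.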

How the data were processed

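Values were taken from the deposited series matrix, where the authors give log2 signals of 27342 probe sets on 9 arrays made with RMA; the labels also name Partek, without a version. RMA gives the probe signals of all arrays of a run a common distribution, so a change in total RNA per cell would not appear. The deposited probe set values still differed somewhat in distribution. Lower quartiles were 5.70 to 5.74 in control medium and 5.79 to 5.85 in K+-free medium. Upper quartiles were 9.24 to 9.27 and 9.07 to 9.15. The 3 arrays of a group were taken as independent experiments as the study's methods state; the methods name a larger n for the array analysis than the labels, and the labels were followed.

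Probe sets were named through the platform annotation and RefSeq; 15097 have 1 symbol, 323 several and 11922 none, and 15067 of the first matched a RefSeq identifier. The 499 genes with several probe sets were represented by the brightest over the 9 arrays. With limma 3.58.1 (R 4.3.3), and with the data.table package (1.17.8) for reading, a mean for each medium was fitted over all 9 arrays, with empirical Bayes moderation and Benjamini-Hochberg adjustment over all probe sets of a contrast; the fit was tested on simulated data. Tables and plots used Python 3.11.15, pandas 2.3.3, numpy 2.4.6 and matplotlib 3.10.9.

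Genes picked by rule are the 15 largest rises and falls with arrays apart and the genes the study followed. To these were added up to 4 called members with the largest changes in each of 49 lists and the 6 largest differences from ouabain each way. Every measured sodium pump gene, reference gene and cell type marker was picked as well. Not all genes picked are described above, Cnn1, Tek and Has1 being examples. Any other gene named was chosen after its values were seen. The lists and rules were chosen with earlier results of these data known. Lists are described by counts and medians without a test. One entry that is no proteasome subunit was removed from that list after its value was seen. Promoters are RefSeq GRCr8 entries matched by gene identifier. Alternatives covered repeated quantile normalization, centring on array medians, B2m or reference genes, filters on dim or unnamed probe sets, other fold limits, other error models, the replicate block and leaving out each array. No other column of sample values was present or used.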

Additional observations from a re-analysis of the deposited data

How the results depend on the processing

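Limits on the fold moved the counts most. Against 4391 rises and 4890 falls in K+-free medium, and 2311 probe sets higher and 2180 lower than in ouabain, a fold above 1.5 gave 1578, 2740, 647 and 502, and a fold above 2 gave 559, 1123, 202 and 68. Without a fold limit 6858 rose. Centring on B2m gave 2375 rises and probe sets with 1 gene symbol 2641, the latter because fewer probe sets were tested. All other settings stayed within 1.5 times of these counts: leaving out each array in turn gave 4134 to 4590 rises, 4729 to 4958 falls, 2162 to 2487 higher and 2073 to 2252 lower. With the replicate block 4447 rose and 4905 fell, and no called gene picked by rule lost its call. The study ran controls and treatments in parallel in each experiment, but its labels do not say that a replicate number marks an experiment. Deviations of same-numbered K+-free and control arrays correlated at 0.14, 0.041 and 0.087, and every K+-free array correlated best with the control array of its own number, so pairing by number is possible but not settled. Of the 201 genes picked by rule that were called, 188 kept their call under every setting that gave them a value, and none changed direction. The stricter fold limits were not applied to single genes. The 13 that lost their call somewhere were small changes, such as Kcne4, Cdh5, Lum and Atp1a4, 12 of them under B2m centring. Settings with dim members left out of lists were added after the data were seen. Signal near background limits the potassium channel list, where 21 of 83 members have a mean above the median of all values in either medium. It also limits the sodium pump list, where 7 of 14 do.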
